A study of Mus musculus with 7 samples.

Results

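The 35 genes described here encode the core machinery of macroautophagy and the main lysosome membrane proteins, in spinal cord RNA from hSOD1G93A mice with and without Neat1. They were chosen by name, from what their products are known to do, though with earlier results of these data known. All 35 were found once each by gene symbol among the 55487 genes of the count table. Grouped by step, 5 were placed in initiation, 11 in nucleation, 16 in conjugation and 3 in the lysosome. The cargo receptor Nbr1 was placed with conjugation and the transcription factor Tfeb with the lysosome.

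RNA-seq was performed on the cervical spinal cord of mice at 8 weeks of age, with 1 library per mouse. Neat1 is a long noncoding RNA that builds nuclear bodies called paraspeckles. The Neat1-KO; hSOD1G93A group held 4 mice (numbered 1 to 4) and the Neat1-WT; hSOD1G93A group held 3 mice (numbered 2 to 4), and the comparison asks which transcripts differ when Neat1 is missing. Both genotypes carried the mutant human SOD1 transgene hSOD1G93A, a model of amyotrophic lateral sclerosis, as hemizygotes, so no library here lacks the transgene. Neat1-KO and Neat1-WT mice came from crosses of Neat1 heterozygotes, and the Neat1 deletion was carried by all cells of the animal. The RNA came from whole cord, so fewer cells of a type and less RNA per cell cannot be told apart at any gene below.

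Macroautophagy encloses cytoplasm, protein aggregates and damaged organelles in a double membrane, the autophagosome, which fuses with the lysosome for degradation. A kinase complex starts the process, a lipid kinase complex marks the membrane that grows, and 2 linked reactions attach ubiquitin-like proteins of the Atg8 family (LC3 and GABARAP) to that membrane, where they recruit cargo receptors. In long-lived cells such as motor neurons the pathway is known for clearing misfolded proteins, and much of its control acts on the proteins rather than on their RNA.

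Total counts ranged from 19661878 to 26031517 per library, and the 35 members together took between 0.367% and 0.381% of them. Neat1 stood at 5.09, 5.40, 5.52 and 4.04 CPM (counts over the TMM-scaled library total) in Neat1-KO mice 1 to 4 and at 86.2, 80.5 and 118 CPM in Neat1-WT mice 2 to 4, a log2 fold change of -4.25 ± 0.15 (SE, edgeR adjusted p = 1.52e-08) that goes with the labels. Xist did not pass 0.161 CPM in any of the 7 libraries. The Y-linked Ddx3y stood at 82.8, 75.8, 86.6 and 39.9 CPM in Neat1-KO mice 1 to 4 and at 84.8, 81.5 and 94.4 CPM in Neat1-WT mice 2 to 4. The 3 X-linked members were thus read in libraries that all had Xist near 0 and held Ddx3y RNA, least in Neat1-KO mouse 4. The labels give no sex per mouse. The paper states that males and females were used in sex-balanced groups, but no library here showed the high Xist and absent Ddx3y of a female. Hox genes of the cervical level summed to between 172 and 221 CPM and those of the lumbar level to between 0.769 and 2.47 CPM. All 6 motor neuron markers had lower estimates in Neat1-KO (median log2 fold change -0.25, none called), with summed levels of 278 to 338 CPM against 360 to 428 CPM. Oligodendrocyte markers were lower for 8 of 9 (34441 to 37222 CPM against 35986 to 43977 CPM). Microglial markers were higher for 9 of 10 (319 to 430.4 CPM against 297 to 406 CPM) and meningeal markers for 7 of 8 (647 to 984 CPM against 717 to 967 CPM). Neuron markers were higher for 4 of 10, astrocyte markers for 4 of 8 and blood vessel markers for 6 of 8. Markers of blood, sensory ganglion and skeletal muscle were higher for 1 of 5, 1 of 4 and 1 of 3 tested. None of these genes was called. An unadjusted edgeR p under 0.05 was reached by 3 motor neuron, 2 oligodendrocyte and 2 meningeal markers, against 4.64% of all genes tested. It was also reached by 1 neuron, 1 sensory ganglion and 1 skeletal muscle marker. The part of these cell types in the members' levels was not tested.

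No member was called between the genotypes. A call needed an edgeR adjusted p under 0.1 over the 18449 genes tested and an absolute log2 fold change over 0.58, and this was met by 6 genes or 0.0325% of all genes tested. Adjusted p of the members lay between 0.992 and 0.999. At an unadjusted p under 0.05 stood 0 of the 35 members, against 4.64% of all genes tested, and DESeq2 and limma-voom also put 0 members there. The members' log2 fold changes ran from -0.15 for Atg12 to 0.27 for Wdr45, with 18 above 0 and 17 below and a median of 0.0052, against a median of 0.0062 over all genes tested, of which 51.8% were above 0.

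The libraries set close bounds on these differences. All 35 members had a 95% interval of the log2 fold change that lay wholly between -0.58 and 0.58, and for 33 of them it lay between -0.4 and 0.4. Among all genes tested the interval lay within 0.58 for 69.2%, and for 95.2% of the 12276 genes with a mean at or over 6.23 CPM, the mean of the lowest member. Half-widths of the members' intervals ranged from 0.14 to 0.34, with a median of 0.18. Member counts were never below 127 in a library, and the median member stood at 53.6 CPM against 16.1 CPM for all genes tested. The members' coefficient of variation between mice had a median of 6.39% for Neat1-KO and 5.86% for Neat1-WT, against 9.15% and 7.33% for genes at or over 6.23 CPM. Those genes were not matched to the members in level, and the part of level in this difference was not tested.

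**Figure D1:**
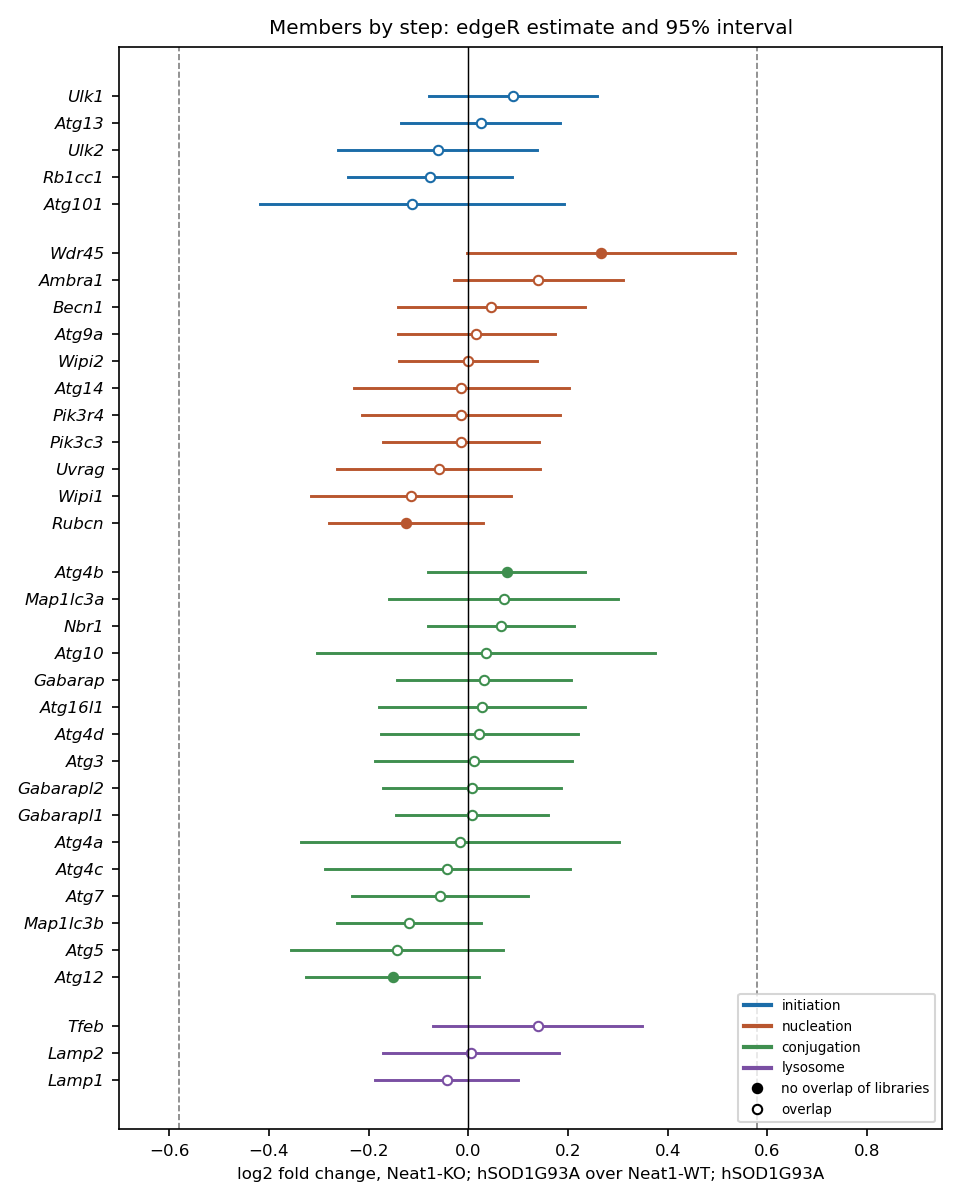
Log2 fold change of each member, Neat1-KO; hSOD1G93A over Neat1-WT; hSOD1G93A (n = 4 and 3 mice), from edgeR, with its 95% interval as a line; colours mark the 4 steps, filled points the members whose libraries do not overlap between genotypes, and dashed lines 0.58 in either direction. Every interval lies inside the dashed lines, and the one that reaches farthest, that of Wdr45, ends at 0.54.

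In 4 of 35 members (11.4%) all libraries of one genotype lay on the same side of the other's, against 5.47% of all genes tested and 5.29% of those at or over the mean of the lowest member. Wdr45 and Atg4b were higher in every Neat1-KO library and Rubcn and Atg12 lower. None of the 4 had an adjusted p under 0.99 by edgeR.

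Levels between members were compared per kilobase of exon (RPKM), with length taken over all annotated exons of a gene. The order of members and the shares below depend on this length. Map1lc3b had 297 CPM in Neat1-KO and 323 CPM in Neat1-WT, above 189 and 180 CPM for Map1lc3a. In RPKM it stood at 39.6 and 43.0, below 160 and 152 for Map1lc3a. Levels spanned 112-fold, from 2.34 RPKM for Atg4a to 262 RPKM for Lamp1. Genes of initiation (7.68 to 20.7 RPKM) and nucleation (3.53 to 13.6 RPKM) lay in a narrow band. Conjugation held both the lowest and some of the highest levels, since the 5 Atg8 genes stood far above the enzymes that process them. Summed over its genes, nucleation came to 93.2 ± 1.1 RPKM with Neat1 deleted (SD, n = 4) and 93.6 ± 1.0 RPKM with it intact (SD, n = 3), and initiation to 71.6 ± 1.4 and 72.3 ± 2.3 RPKM. The sum over conjugation was 683 ± 52 RPKM in Neat1-KO and 676 ± 28 RPKM in Neat1-WT, and over the lysosome genes 277 ± 8.4 and 285 ± 19 RPKM. Each of the 4 differences was smaller than the spread between mice.

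**Figure D2:**
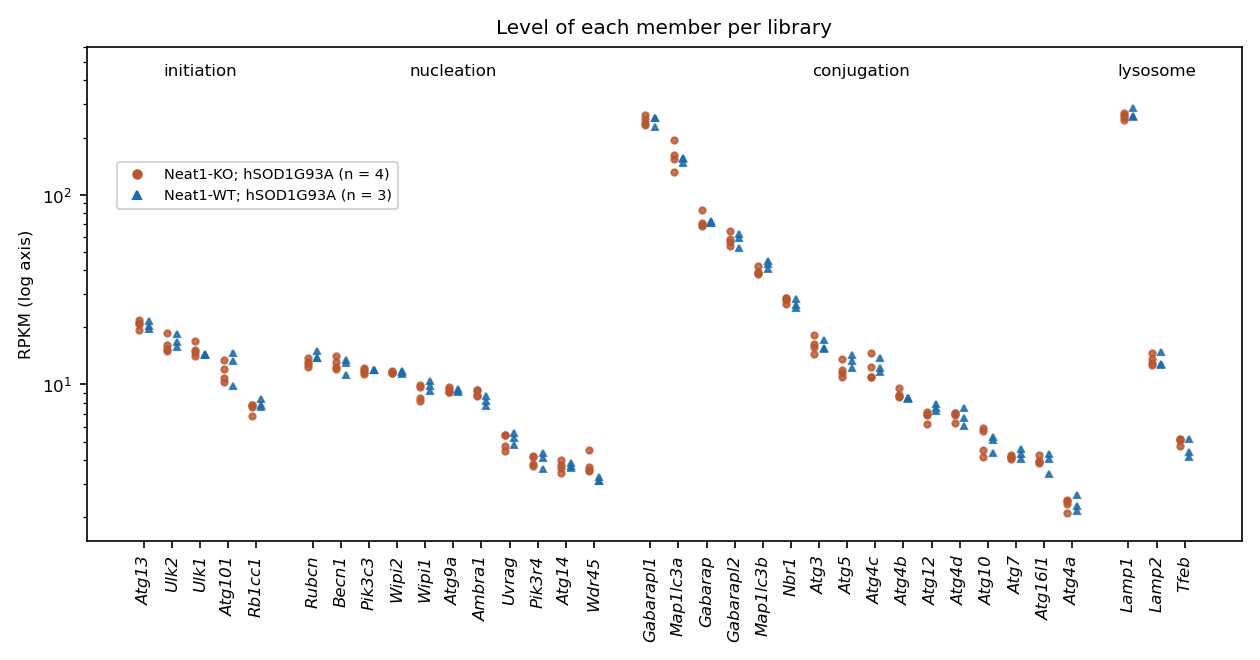
Level of each member in RPKM on a log axis, 1 point per library, circles for Neat1-KO; hSOD1G93A (n = 4) and triangles for Neat1-WT; hSOD1G93A (n = 3), ordered by mean level within each step. Lamp1, Gabarapl1 and Map1lc3a lie above all others, and the distance between genes is far larger than that between genotypes.

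Initiation rests on the kinases Ulk1 and Ulk2 and on Atg13, Atg101 and the scaffold Rb1cc1 (FIP200). Ulk1 (chr5:110784488-110810097, GRCm38), the kinase that receives signals from mTORC1 and AMPK, stood at 96.7, 110.3, 91.2 and 98.7 CPM in Neat1-KO mice 1 to 4 and at 93.1, 92.8 and 93.8 CPM in Neat1-WT mice 2 to 4. The Neat1-WT mice differed by about 1 CPM and fell inside the range of the Neat1-KO mice, of which mouse 2 was highest, and the log2 fold change was 0.09 ± 0.08 (SE). Atg13 (chr2:91674618-91710576), the adaptor that binds the kinase to the scaffold, was the most abundant gene of the complex at 20.7 RPKM. Its 92.1, 95.7, 85.0 and 90.9 CPM in Neat1-KO overlapped 94.1, 88.8 and 85.2 CPM in Neat1-WT (log2 fold change 0.02 ± 0.07). Atg101 (chr15:101284272-101290945), the partner that stabilises Atg13, had the largest estimate of the step at -0.11 ± 0.14, with 21.6, 19.2, 16.4 and 17.2 CPM against 21.2, 23.3 and 15.6 CPM. Neat1-WT mice thus held both the highest and the lowest value of Atg101, and its interval ran from -0.42 to 0.19. Estimates for Ulk2 and Rb1cc1 were -0.06 and -0.08, and the median over the 5 genes was -0.06.

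Nucleation depends on the class III phosphatidylinositol 3-kinase Pik3c3 (VPS34), its regulators, the lipid scramblase Atg9a, and the WIPI proteins that read the lipid it makes. Becn1 (chr11:101285952-101302286), the scaffold of the kinase complexes, stood at 100.2, 85.5, 87.6 and 92.3 CPM in Neat1-KO and at 91.8, 94.7 and 79.0 CPM in Neat1-WT, and the ranges overlapped (log2 fold change 0.05 ± 0.09). Of its annotated exon bases 43.9% also lie in exons of Cntd1 on the other strand, and the strand setting of the counting was not given, so reads of the pair may not have been told apart. Cntd1 itself held 517 to 820 counts. The catalytic subunit Pik3c3 and its kinase-like partner Pik3r4 (VPS15) both had estimates of -0.01. Likewise the targeting subunits Atg14, which directs the complex to autophagosome formation, and Uvrag, which directs it to endosomes, gave -0.01 and -0.06. Ambra1, which binds Becn1 and promotes its complex, gave 0.14 ± 0.08, and the highest Neat1-WT library, mouse 3, exceeded the lowest Neat1-KO library by less than 0.01 CPM.

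Rubcn (chr16:32821703-32877766), the Rubicon protein that inhibits the Uvrag form of the lipid kinase complex, was the most abundant nucleation gene at 13.6 RPKM. It stood at 92.8, 103.1, 98.6 and 95.9 CPM in Neat1-KO mice and at 112, 103.2 and 104 CPM in Neat1-WT mice. The groups did not overlap, but Neat1-KO mouse 2 and Neat1-WT mouse 3 were within 0.2 CPM of each other. Its log2 fold change was -0.12 ± 0.07 (edgeR adjusted p = 0.992).

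Wdr45 (chrX:7714333-7728206), also called WIPI4, binds the lipid made by Pik3c3 together with Atg2 proteins, and its loss causes a childhood neurodegeneration with iron accumulation. It had the largest estimate of all members, 0.27 ± 0.12 or 20.3% higher in Neat1-KO, with a 95% interval from -0.218% to 44.9%. Its 14.9, 11.7, 12.1 and 11.6 CPM in Neat1-KO all exceeded 10.8, 10.3 and 10.2 CPM in Neat1-WT. Mouse 1 stood apart within Neat1-KO, and without it the estimate fell to 0.17. Leaving out any other mouse gave 0.25 to 0.30. Without Neat1-KO mouse 2 or mouse 4 the unadjusted edgeR p was 0.0493 and 0.0476, in fits where 3.23% and 3.19% of all genes were under 0.05. Of the Wdr45 exon bases 24.7% also lie in exons of Gm45208 on the same strand, which held 0 counts, so reads there may not have been counted. With all mice the unadjusted edgeR p of Wdr45 was 0.0523 and the adjusted p 0.992. Its relatives Wipi1 and Wipi2 gave -0.12 ± 0.09 and -0.0011 ± 0.06. Atg9a, with 31.8% of its exon bases shared with Gm29253 on the same strand (0 counts), gave 0.02. The median over the 11 nucleation genes was -0.01, with 4 above 0.

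Conjugation uses 2 pathways that meet. The activating enzyme Atg7 serves both, Atg10 passes Atg12 on to Atg5, and Atg12, Atg5 and Atg16l1 form the complex that directs Atg3 to attach Atg8 proteins to lipid. Atg12 (chr18:46730144-46741580) stood at 55.0, 47.7, 53.8 and 53.1 CPM in Neat1-KO and at 61.0, 55.9 and 57.6 CPM in Neat1-WT, without overlap, though Neat1-KO mouse 1 and Neat1-WT mouse 3 were within 1 CPM. The log2 fold change was -0.15 ± 0.08 (edgeR adjusted p = 0.992). Its partner Atg5 had an estimate of -0.14 ± 0.10 with libraries that overlapped, while the third protein of the complex, Atg16l1, gave 0.03 ± 0.10. Among the enzymes, Atg7, Atg3 and Atg10 gave -0.06, 0.01 and 0.04. Leaving out Neat1-KO mouse 1 brought the unadjusted edgeR p of Map1lc3b, Atg5 and Atg12 to 0.0363, 0.0403 and 0.0499, in a fit where 6.85% of all genes were under 0.05, and the lowest adjusted p of any member in any alternative was 0.647.

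The 4 Atg4 proteases trim Atg8 proteins before conjugation and release them from membrane afterwards. Atg4b (chr1:93751500-93790610) is the form with the broadest activity on LC3. Its 79.3, 72.6, 71.2 and 71.6 CPM in Neat1-KO lay above 70.3, 69.9 and 69.1 CPM in Neat1-WT. The gap between the groups was under 1 CPM, and the log2 fold change was 0.08 ± 0.07 (edgeR adjusted p = 0.992). Atg4a, Atg4c and Atg4d gave -0.02, -0.04 and 0.02. Atg4a was the least abundant member at 127 to 164 counts per library, and it has a copy, Atg4a-ps, that is 99.3% identical over 2115 bases and held 9 to 24 counts.

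The 5 Atg8 genes carried 48.3% to 53.7% of the members' summed RPKM in each library. Gabarapl1 (chr6:129533160-129542346) led with 245 RPKM and stood at 527, 483, 466 and 505 CPM in Neat1-KO and at 513, 509 and 457 CPM in Neat1-WT. Its log2 fold change of 0.0067 ± 0.07 had an interval from -0.15 to 0.16, and the ranges of the genotypes overlapped over most of their length. Of its exon bases 28.3% lie opposite 1700101I11Rik, which held 2647 to 3907 counts. Map1lc3a (chr2:155276297-155278073), the LC3A gene, stood at 228, 190.4, 155 and 182 CPM in Neat1-KO against 182, 185 and 173 CPM in Neat1-WT, so Neat1-KO mice held both extremes (0.07 ± 0.11).

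Map1lc3b (chr8:121590361-121598760) encodes LC3B, the form most used to count autophagosomes. It stood at 318, 296, 290.1 and 286 CPM in Neat1-KO mice 1 to 4 and at 337, 326 and 307 CPM in Neat1-WT mice 2 to 4. Only Neat1-KO mouse 1 reached into the Neat1-WT range, and the log2 fold change was -0.12 ± 0.07 with an interval from -0.26 to 0.03. The processed pseudogene Gm6055 is 99.7% identical to it over 378 bases and held 445 to 649 counts against at least 6014 for Map1lc3b. Some reads of the pair may thus sit under either name or have been lost under unique mapping. Other copies include Gm12727 (98.61% over 360 bases, 0 to 1 counts) and Gm6054 (98.15% over 378 bases, 0 to 6 counts). With the counts of Map1lc3b and Gm6055 joined the values were 343, 322, 311 and 308 CPM against 357, 353 and 329.9 CPM, and again mouse 1 overlapped. Joining does not bring back reads that were lost.

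Gabarap (chr11:69991143-69994951) stood at 154, 128, 125 and 131 CPM in Neat1-KO and at 134, 131 and 130.2 CPM in Neat1-WT (0.03 ± 0.08). Gabarapl2 (chr8:111940703-111953612), also known as GATE-16, stood at 149, 131, 125 and 135 CPM against 137, 144 and 122 CPM (0.0078 ± 0.08). In both genes the Neat1-KO mice spread more widely than the difference between genotypes. As a share of the summed Atg8 RPKM, Gabarapl1 made up 42.8 ± 1.6% in Neat1-KO (SD, n = 4) and 43.0 ± 0.68% in Neat1-WT (SD, n = 3), and Map1lc3a 27.6 ± 2.1% and 26.8 ± 0.43%. Gabarap made up 12.6 ± 0.38% and 12.5 ± 0.54%, and Gabarapl2 10.1 ± 0.16% and 10.1 ± 0.39%. Map1lc3b made up 6.88 ± 0.37% in Neat1-KO and 7.55 ± 0.13% in Neat1-WT, and it was the one share of the 5 whose libraries did not overlap (6.55% to 7.38% against 7.41% to 7.65%). That share was picked out after its values were seen and was not tested. Gabarapl2 has near-identical processed pseudogenes, among them Gm3724 (99.43% over 349 bases, 1 to 15 counts) and Gm6051 (98.01% over 352 bases, 0 to 8 counts). Reads shared with such copies of Gabarapl2 or Map1lc3b may have been lost, and the part of this loss in the shares was not tested.

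Nbr1 (chr11:101552149-101581951), a cargo receptor that binds both ubiquitin and Atg8 proteins, stood at 183, 192, 196 and 196 CPM in Neat1-KO and at 181, 174 and 195 CPM in Neat1-WT. Neat1-WT mouse 4 lay among the Neat1-KO mice, and the log2 fold change was 0.07 ± 0.07. Over the 16 conjugation genes the median was 0.0093, with 10 above 0 and 6 below. Without Nbr1 and the 5 Atg8 genes it was -0.0026.

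Tfeb (chr17:47737030-47792419) is the transcription factor that switches on many autophagy and lysosome genes through a short sequence with CACGTG at its centre, the CLEAR element. It stood at 29.0, 29.3, 26.7 and 29.3 CPM in Neat1-KO mice 1 to 4 and at 23.4, 25.1 and 29.4 CPM in Neat1-WT mice 2 to 4. Neat1-WT mouse 4 was the highest of all 7, and without it the log2 fold change rose from 0.14 ± 0.10 to 0.23. In that fit the edgeR p of Tfeb was 0.036 unadjusted and 0.968 adjusted, and 5.05% of all genes were under 0.05 unadjusted.

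Lamp1 (chr8:13159161-13175338) and Lamp2 encode the heavily glycosylated proteins that line the lysosome membrane, and one form of Lamp2 also takes in proteins one by one. Lamp1 stood at 702, 689, 716 and 664 CPM in Neat1-KO and at 691, 684 and 768 CPM in Neat1-WT, with a log2 fold change of -0.04 ± 0.07. Its interval from -0.19 to 0.10 was among the narrowest of the members. Lamp2 (chrX:38401357-38456454) stood at 123, 121, 139.5 and 129.9 CPM in Neat1-KO and at 121, 122 and 142 CPM in Neat1-WT (0.0052 ± 0.08). Both genes were highest in Neat1-WT mouse 4.

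Promoter windows from RefSeq on GRCm38.p6, 250 bases before to 50 bases after an annotated RefSeq start, were at hand for 29 of the 35 members. The starts used for Atg7, Atg14 and Rubcn lie well inside the span of the gene in GENCODE. CACGTG was found in those of 6 members, Atg3, Atg5, Atg7, Atg14, Lamp1 and Rubcn. The 29 members had 35 windows, of which 6 held CACGTG, against 7.15% of all 32851 windows. The longer TCACGTG, which contains it and was searched on both strands, was in 5 of those 6 members, Atg5 being the exception. It was in 5 of the 35 windows, against 3.77% of all windows. The full CLEAR palindrome of 10 bases was in 0 of the 29 members, against 0.326% of all windows. Its core of 8 bases was in 1 member, Atg3, and in 1 of the 35 windows, against 0.974% of all windows. Lamp1 and Atg3 held more than 1 copy of CACGTG. The 100 bases that hold these copies are shown, with each CACGTG in capitals. These stretches were chosen after the search, since those planned were to hold the palindrome. The Lamp1 window held neither the palindrome nor its core. The Lamp1 stretch (chr8:13159061-13159160, plus strand) ends at the base before the start, and the Atg3 stretch (chr16:45158679-45158778, plus strand) ends with 50 bases between it and the start.
Lamp1: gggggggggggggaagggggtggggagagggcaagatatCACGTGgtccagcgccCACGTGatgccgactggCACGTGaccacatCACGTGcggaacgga
Atg3: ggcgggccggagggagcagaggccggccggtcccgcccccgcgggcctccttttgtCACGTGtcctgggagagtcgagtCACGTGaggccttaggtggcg
The 4 copies in Lamp1 begin 61, 45, 28 and 15 bases before the start and the 2 in Atg3 begin 94 and 71 bases before it. The log2 fold changes of Lamp1 and Atg3 were -0.04 and 0.01, and those of the other 4 genes ran from -0.14 for Atg5 to -0.01 for Atg14. A match of letters is a description and does not show that a factor binds there.

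Single mice were often the highest or the lowest of their genotype over many members. Neat1-KO mouse 1 was the highest of its genotype for 16 of 35 members (45.7%) and for all 5 Atg8 genes, against 31.2% of all genes tested. Neat1-KO mouse 3 was the lowest for 13 members (37.1%, against 27.9% of all genes tested) and for 4 of the 5 Atg8 genes, Map1lc3b being lowest in mouse 4. In Neat1-WT, mouse 4 was the lowest for 17 members (48.6%, against 36.4% of all genes tested) and for all 5 Atg8 genes. It was also the highest for 14 members (40.0%, against 36.5% of all genes tested), among them Nbr1, the 3 lysosome genes, Ulk1, Ulk2 and Atg7. Summed over the 5 Atg8 genes, levels were 645, 566, 523 and 572 RPKM in Neat1-KO and 585, 585 and 537 RPKM in Neat1-WT, so the distance between mice 1 and 3 of Neat1-KO exceeded that between the genotypes' means, 577 and 569 RPKM. Across 18429 genes with an exon length, Spearman's rho of a library's deviation from its genotype's mean with exon length was -0.306, -0.0133, 0.266 and 0.106 in Neat1-KO mice 1 to 4 and -0.0692, -0.228 and 0.234 in Neat1-WT mice 2 to 4. Over the 35 members rho was -0.426, 0.163, 0.288 and 0.204 and then -0.0291, -0.201 and 0.141. Genes share libraries and are not replicates, and the part of transcript length in the Atg8 levels was not tested. Exons of Map1lc3b span 7517 bases and those of the other 4 Atg8 genes 1181 to 2325 bases.

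**Figure D3:**
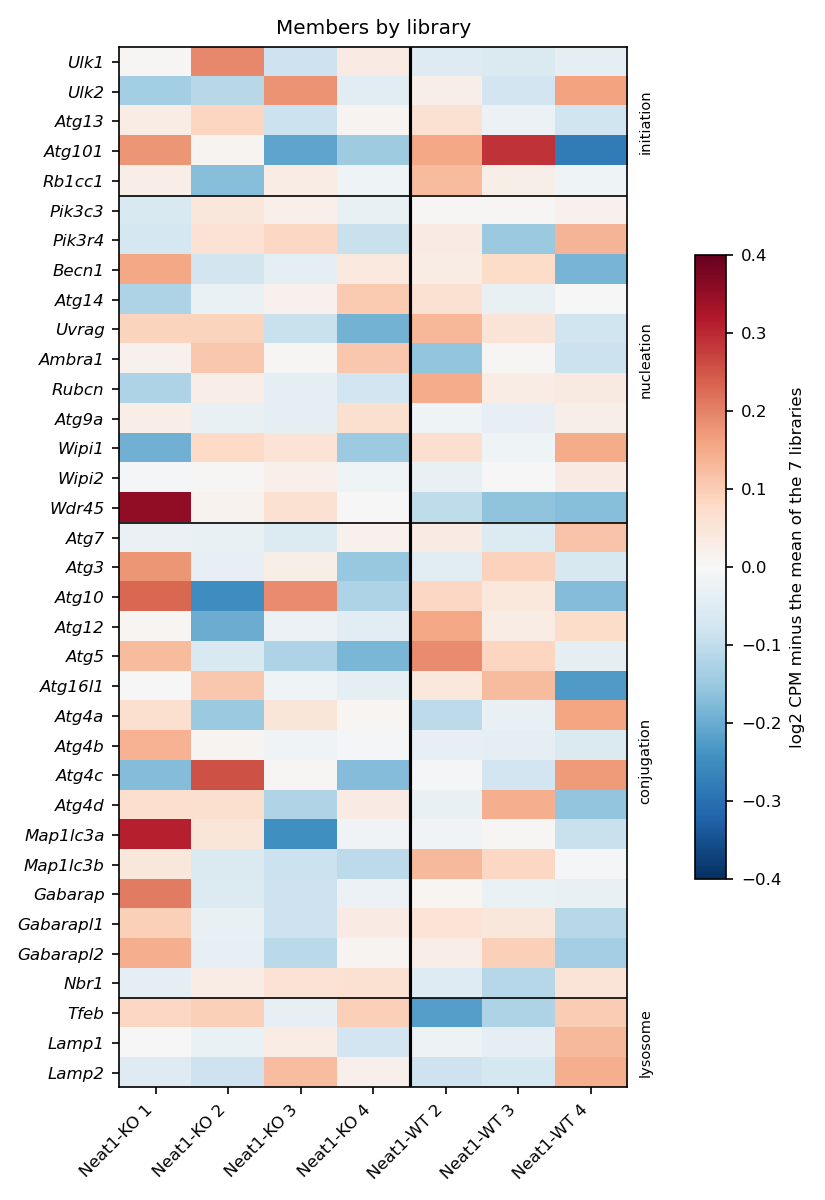
Log2 CPM of each member in each library minus the mean of the 7 libraries, red for higher and blue for lower, with members grouped by step and a black line between the 4 Neat1-KO and the 3 Neat1-WT mice, all with hSOD1G93A. The Atg8 genes are red in Neat1-KO mouse 1 and mostly blue in Neat1-KO mouse 3 and Neat1-WT mouse 4, while Wdr45 is the darkest cell of Neat1-KO mouse 1 in the nucleation block.

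The rest of the pathway was read from 8 lists of 165 other genes, of which 164 were tested. None was called, 3 (1.83%) had an unadjusted edgeR p under 0.05 against 4.64% of all genes tested, and their median log2 fold change was 0.0078 with 85 above 0 and 79 below. Intervals lay within 0.58 for 162 of them. Atg2a, which moves lipid into the growing membrane with WIPI proteins, stood at 57.2, 67.3, 55.1 and 57.6 CPM in Neat1-KO and at 52.8, 51.8 and 50.1 CPM in Neat1-WT (0.20 ± 0.09, edgeR adjusted p = 0.992). All 4 Neat1-KO libraries lay above the Neat1-WT libraries. Pink1, the kinase that marks damaged mitochondria for autophagy, stood at 650.4, 671, 548 and 599.9 CPM against 495, 528 and 518 CPM, again without overlap (0.27 ± 0.08, edgeR adjusted p = 0.814). Ctsf, the lysosomal cysteine protease cathepsin F, stood at 68.0, 68.4, 61.4 and 62.9 CPM against 53.7, 58.5 and 54.0 CPM (0.23 ± 0.08, edgeR adjusted p = 0.974). These 3 genes were picked for an unadjusted p under 0.05, which favours groups that lie apart. Full separation of Neat1-KO from Neat1-WT mice was found for 10 of the 164 genes, against 5.47% of all genes tested.

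By list, estimates were above 0 for 3 of 11 other core autophagy genes (median log2 fold change -0.02), 11 of 20 selective autophagy receptors (0.03), 7 of 17 fusion genes (-0.0043) and 14 of 35 mTORC1 and AMPK regulators (-0.02). For transcription factors of the pathway other than Tfeb they were above 0 for 4 of the 6 tested (0.01). Lysosomal genes gave 9 of 19 for other membrane proteins (-0.0033), 10 of 18 for the proton pump, V-ATPase (0.02), and 27 of 38 for hydrolases (0.04). Hydrolase estimates ran from -0.19 to 0.23, and 51.8% of all genes tested had an estimate above 0.

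**Figure D4:**
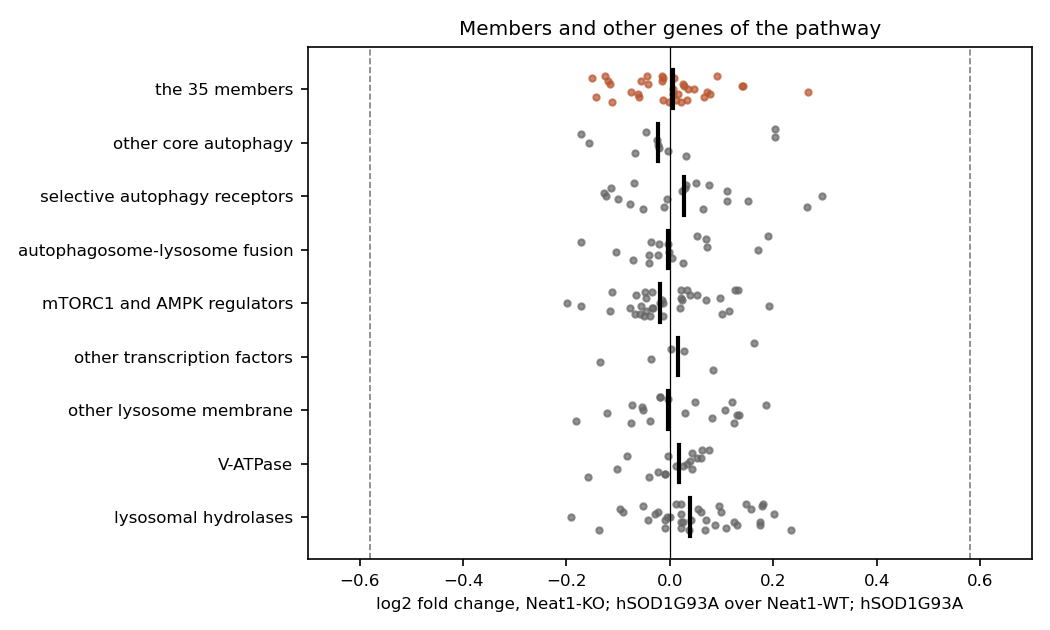
Log2 fold change, Neat1-KO; hSOD1G93A over Neat1-WT; hSOD1G93A, of each gene of the 35 members and of 8 other lists of the pathway, 1 point per gene with its list's median as a bar and dashed lines at 0.58 in either direction. No gene of any list reaches a dashed line, and the medians lie between -0.02 and 0.04.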

How the data were processed

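The authors prepared poly(A) directional libraries, sequenced paired ends on an Illumina NovaSeq instrument, trimmed with Trimmomatic 0.38, aligned with HISAT2 2.1.0 (mm10, per the submitters' processing notes) and counted uniquely mapped reads with featureCounts 1.6.3. They deposited raw counts per gene without normalization. The annotation release and strand setting of the counting are not given in the sources used here, and reads shared with near-identical copies are lost or split under unique mapping. Libraries were grouped by the labels. Gene identifiers were matched to GENCODE M21 on GRCm38 (55227 of 55487), and exon lengths and overlaps came from it.

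In R 4.3.3, edgeR 4.0.16 (filterByExpr, TMM, quasi-likelihood F-test, Benjamini-Hochberg) compared 4 Neat1-KO with 3 Neat1-WT libraries over all 18449 genes that passed the filter (common coefficient of variation 0.128). Thresholds were those of the study's volcano plot, adjusted p under 0.1 and absolute log2 fold change over 0.58. The standard error is the absolute log2 fold change over the root of F, and the 95% interval uses the fit's degrees of freedom. RPKM is TMM-scaled CPM per kilobase of union exon length. A permutation test planned for members without overlap is not given, since choosing them for that pattern itself keeps its p small. Deviations from a mean and the plot by library used log2(CPM + 0.5). Copies were sought with BLAST 2.17.0 at 90% identity over at least 300 bases. DESeq2 1.42.0, limma 3.58.1 and other settings were alternatives. Python 3.11.15 with pandas 2.3.3 and matplotlib 3.10.9 was used for summaries and figures.

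The members, the steps and the lists of other pathway genes and of 12 kinds of markers were chosen with earlier results of these data known. All members are named. Values per library are given for members without overlap, for those with the highest RPKM or largest estimate of their step, and for Ulk1, Becn1, Nbr1, Tfeb, Lamp1, Lamp2 and the Atg8 genes, and from other lists for up to 2 genes per direction with the smallest unadjusted p under 0.05. Same-numbered mice of the genotypes did not deviate together (correlations -0.238, -0.162 and -0.0119 for numbers 2, 3 and 4), so no pairing was used. Chi-square per gene between libraries of 1 genotype was 8.06 to 17.7, so no library repeated another. P-values measure the spread between these mice only.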

Additional observations from a re-analysis of the deposited data

Results flagged for a closer look

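In a group of 4 libraries, a value was marked when its gap to the nearest library, divided by the whole range of the group, passed 0.829. This was done for the 35 members, Neat1, Atg2a, Pink1 and Ctsf in the 4 Neat1-KO mice, 39 groups in all, and 2 were marked where chance gives about 1 in 20. Wdr45 in Neat1-KO mouse 1 stood at 14.9 CPM above 12.1, 11.7 and 11.6 CPM (ratio 0.846). Tfeb in Neat1-KO mouse 3 stood at 26.7 CPM below 29.0, 29.3 and 29.3 CPM (ratio 0.891), and the Tfeb log2 fold change was 0.14 with that mouse and 0.17 without it. The Neat1-WT group of 3 was too small for this rule.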

How the results depend on the processing

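No member was called in any of 16 alternative fits, at an adjusted p under 0.05 or without a minimum fold change, and 14 of 35 members kept their sign throughout, Wdr45, Atg12, Rubcn, Map1lc3b, Atg4b and Tfeb among them. The largest absolute log2 fold change of a member was 0.30, and the lowest adjusted p was 0.647. An unadjusted edgeR p under 0.05 was reached by 5 members (Wdr45, Tfeb, Map1lc3b, Atg5 and Atg12), each only in fits that left out 1 mouse. Intervals within 0.58 numbered 34 or 35, the exception being Atg101 (-0.66 to 0.085) with Xist as a covariate and otherwise Wdr45, whose upper bound reached between 0.58 and 0.61 in 5 of the 7 fits that left out 1 mouse. Xist counts are near 0, so that covariate carries little but counting noise. Over the whole table the 6 called genes became 27 with DESeq2, 124 without a filter on low counts and 39 with the replicate block, in which same-numbered mice are paired although they did not deviate together. Leaving out 1 mouse gave 3 to 31 called genes: 31 without Neat1-KO mouse 1, 11 without Neat1-WT mouse 4 and 3 without Neat1-WT mouse 3. The cause was not tested. The median over the members, 0.0052, became -0.018 with the Xist covariate and -0.023 with the replicate block, and -0.027 to 0.0046 when 1 mouse was left out, the lowest without Neat1-KO mouse 1. The median of initiation ran from -0.058 to 0.0094 in those fits. The medians of the other pathway lists moved by less than the spread between mice under RLE.

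Signs turned for 21 members whose estimates were at most 0.11 in size. With the Xist covariate the log2 fold changes were 0.015 for Ulk2, -2.04e-05 for Atg13, 0.083 for Atg14, -0.12 for Atg3, -0.031 for Atg10, -0.053 for Atg16l1, 0.025 for Atg4a, -0.035 for Atg4d, -0.044 for Map1lc3a, -0.017 for Gabarap, -0.0056 for Gabarapl1 and -0.040 for Gabarapl2. With the replicate block they were 0.0029 for Pik3c3, 0.0097 for Pik3r4, 0.023 for Atg14, 0.0018 for Wipi2, -0.049 for Atg3, -0.046 for Atg10, 0.0018 for Atg4c, -0.037 for Map1lc3a, -0.038 for Gabarap, -0.023 for Gabarapl1 and -0.039 for Gabarapl2, and the block changed no member's call. Lamp2 became -0.00032 with DESeq2 and -0.00041 with RLE, and Wipi2 0.00052 with upper-quartile scaling. Leaving out 1 mouse gave ranges that crossed 0 for Atg10 (-0.045 to 0.12), Atg101 (-0.27 to 0.0094), Atg13 (-0.010 to 0.063), Atg14 (-0.054 to 0.021), Atg16l1 (-0.071 to 0.10), Atg3 (-0.052 to 0.062), Atg4a (-0.075 to 0.065), Atg4c (-0.14 to 0.031), Atg4d (-0.049 to 0.11), Atg9a (-0.0038 to 0.030), Becn1 (-0.031 to 0.096), Gabarap (-0.040 to 0.064), Gabarapl1 (-0.047 to 0.036), Gabarapl2 (-0.057 to 0.058), Lamp1 (-0.075 to 0.0093), Lamp2 (-0.037 to 0.081), Map1lc3a (-0.035 to 0.15), Pik3c3 (-0.032 to 0.00048), Pik3r4 (-0.090 to 0.050), Ulk2 (-0.14 to 0.0019) and Wipi2 (-0.016 to 0.012).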
